A study of Mus musculus with 36 samples.

Results

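The wounds compared here were mouse skin biopsies taken 4 days after injury, in the arm labelled PD (6 libraries) and the arm labelled P (5 libraries), chosen by their labels as 11 of the 36 libraries of the study. The other 25 libraries were wounds of both arms at days 2 and 12 and unwounded skin. The labels give the arm, the day and the replicate number. They spell out neither letter and name no strain, age, sex, allele or agent, so they say nothing further of what either arm carried or of what both shared. Xist was at 160 CPM or more in PD wounds and at 234 CPM or more in P wounds. Y-linked genes together held at most 10 and 1 counts per library, the pattern of female tissue. The series title concerns removal of cells with high p21, and the comparison asks how PD wounds differed from P wounds across all genes on that day. Each library held the polyadenylated RNA of a whole biopsy, in which more cells of a type and more RNA per cell cannot be told apart. The labels do not say which animals the biopsies came from, so p-values measure only the spread between these libraries, which may be technical in part.

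A skin wound fills first with neutrophils and then with monocytes that become macrophages, while keratinocytes at the edge divide, migrate under the scab and put off their terminal differentiation. Fibroblasts and vessels then build granulation tissue and lay down collagen. The protein p21, made from Cdkn1a, stops the cell cycle by inhibiting cyclin-dependent kinases. It is a target of p53, and it marks many senescent cells, which secrete cytokines, growth factors and proteases.

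Libraries held between 11.8 and 41.3 M counts in genes in PD wounds and between 19.9 and 39.8 M in P wounds. Mitochondrial genes took 2.64 to 6.38% of counts in PD wounds and 2.46 to 4.98% in P wounds. One library stood apart before any test. P replicate 3 held 12900 counts per M (CPM) over 23 hair shaft and inner root sheath genes, against 13.8 to 49.2 CPM in PD wounds and 10.9 to 36.9 CPM in the other P wounds. Results are therefore given with and without it where it matters. The markers of skin and of wounds were present in all 11 libraries, with Krt14, a keratin of basal keratinocytes, at 4610 to 15700 CPM in PD wounds and 7190 to 15600 CPM in P wounds. S100a9, a calcium-binding protein of neutrophils, stood at 1330 to 7820 CPM in PD wounds and 1220 to 4940 CPM in P wounds.

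Cdkn1a (ENSMUSG00000023067, GRCm39 chromosome 17, 29309936 to 29319701, plus strand) averaged 656 ± 188 CPM in PD wounds (SD, n = 6) and 495 ± 134 CPM in P wounds (SD, n = 5). PD replicates 1 and 2 held 448 and 390 CPM, and PD replicates 3 to 6 held 801, 823, 716 and 756 CPM. The P wounds held 513, 455, 406, 717 and 382 CPM in order of replicate. The arms overlapped: PD replicates 1 and 2 lay within the P range, and P replicate 4 lay just above the lowest of PD replicates 3 to 6. The log2 difference was 0.41 (SE 0.19), which did not pass the test (edgeR, adjusted p = 0.414, unadjusted p = 0.0393). Without P replicate 3 it was 0.34 (edgeR, adjusted p = 0.816). On the other days the PD minus P difference of Cdkn1a was -0.23 at day 2 and 0.40 at day 12, and neither passed (edgeR, adjusted p = 1 and 0.884). The gene overlaps transcripts on the opposite strand, and the strand setting of the counting is not given in the sources used here.

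No gene passed the test between the arms. Of 20657 genes tested, 0 were called higher and 0 lower in PD wounds (edgeR, Benjamini-Hochberg adjusted p under 0.05), 0% of tested genes in each direction. At an unadjusted p under 0.05 there were 1025 higher genes (4.96% of those tested) and 1344 lower genes (6.51%). Levels that did not overlap between all 6 PD and all 5 P libraries were found for 36 higher genes (0.174%) and 28 lower genes (0.136%). The smallest adjusted p was 0.0808, for genes of the hair follicle. The answer depended on the tool: DESeq2 called 9 higher genes (0.0393% of those it tested) and 165 lower genes (0.721%), of which lower genes 141 stood in P replicate 3 at 10 times or more the level of any other day 4 library. Limma-voom with sample weights called 981 higher (4.75%) and 1093 lower genes (5.29%), and without the weights 1 and 0. That 1 gene, Gm49368 (unweighted limma-voom, adjusted p = 0.0279), was also called higher by DESeq2 (adjusted p = 0.015) and by weighted limma-voom (adjusted p = 0.00722). EdgeR did not call it. The 2074 genes of weighted limma-voom and the 174 of DESeq2 shared 20, which is 0.964% of the limma-voom list and 11.5% of the DESeq2 list.

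**Figure D1:**
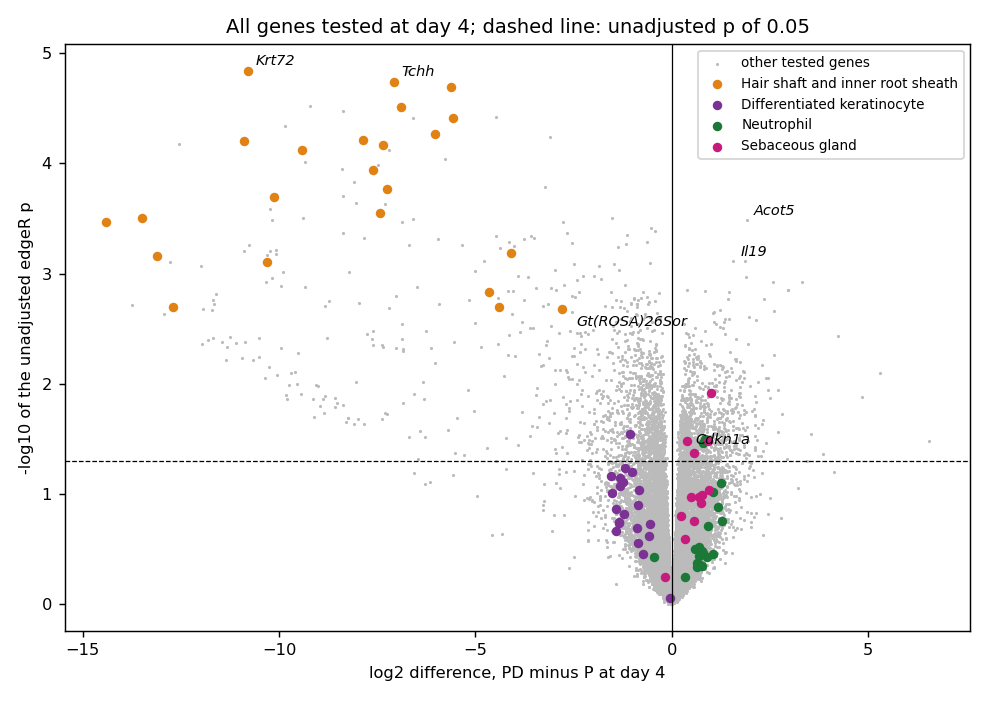
Each point is 1 of the 20657 tested genes: the horizontal axis is the log2 difference PD minus P at day 4 and the vertical axis the -log10 of the unadjusted edgeR p, with 4 gene lists in colour. The hair shaft genes form the cloud at the far left, with log2 differences of -2.80 to -10.89 for the 19 that had counts in PD wounds. The 4 with none are drawn at fitted values that depend on the prior count, while the other coloured lists lie much nearer 0.

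The day 4 libraries separated along an axis that crossed the arms. The first principal component, 37.4% of the variance, set PD replicates 3 to 6 and P replicate 4 at scores of 37.1 to 88.9, and PD replicates 1 and 2 with P replicates 1, 2 and 5 at -31.2 to -44.1. P replicate 3 stood at -108 on the first component and at -109.4 on the second (19% of the variance). Thus 4 of 6 PD libraries and 1 of 5 P libraries lay on the positive side. Weighted limma-voom gave P replicate 1 a weight of 3.53 and P replicates 3 and 4 weights of 0.433 and 0.467, so that its P level rested mostly on replicates 1, 2 and 5. It called Cdkn1a and 38 of the 72 other genes followed across tools, against 10% of all genes. Among the 38 were Krt10, Elovl3, Btg2, Zmat3, Nfkbia, Zfp36, Ier3, Atf3, Il1r2, G0s2 and Mcl1. DESeq2 called 13 of the 72, against 0.0393% of all genes it tested as higher and 0.721% as lower. The 72 were chosen from these same data by their edgeR p or after their values were seen, so these calls are not independent evidence. No label gives a batch that matches this axis, and its part in the arm difference was not tested. With 2 surrogate variables in the edgeR fit, 0 genes passed and the difference of Cdkn1a was 0.13 log2 (edgeR, adjusted p = 0.999).

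**Figure D2:**
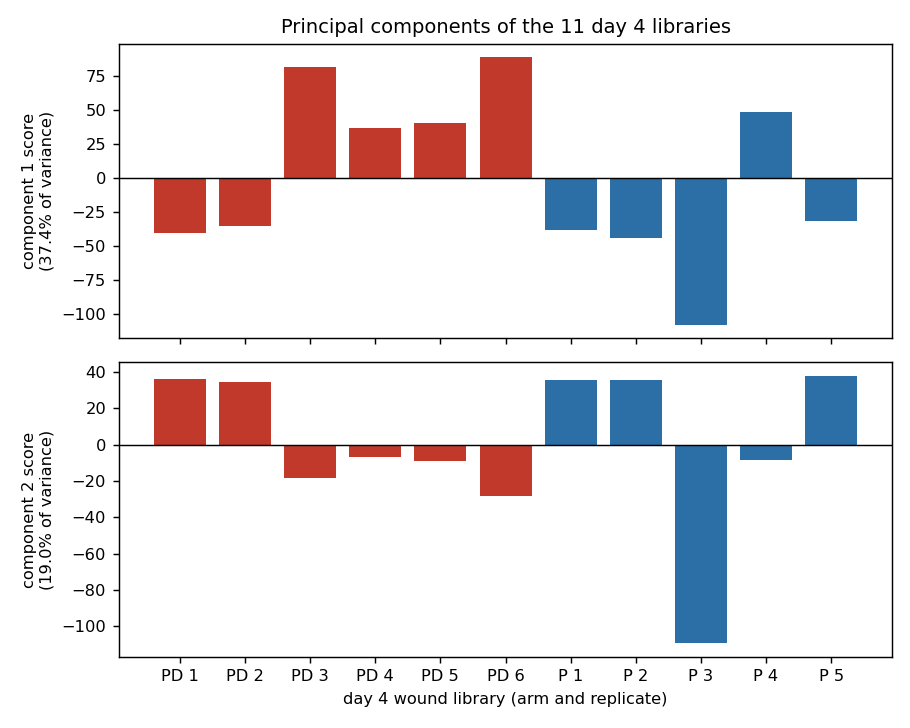
Bars are the scores of each day 4 library on the first (upper) and second (lower) principal component of log2 CPM, PD libraries in red and P libraries in blue. PD replicates 3 to 6 and P replicate 4 are positive on the first component, and P replicate 3 is the lowest on both.

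The same axis is seen in the gene lists. The summed neutrophil genes held 20200, 17600, 10100 and 9290 CPM in PD replicates 3 to 6 and 14200 CPM in P replicate 4. The other PD libraries held 5750 and 4080 CPM and the other P libraries 3900 to 6300 CPM. The differentiated keratinocyte genes ran the other way, with 1990 to 5580 CPM in PD replicates 3 to 6 and 5050 CPM in P replicate 4. They held 21000 and 19000 CPM in PD replicates 1 and 2, and 27500, 38100, 10400 and 22600 CPM in P replicates 1, 2, 3 and 5.

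**Figure D3:**
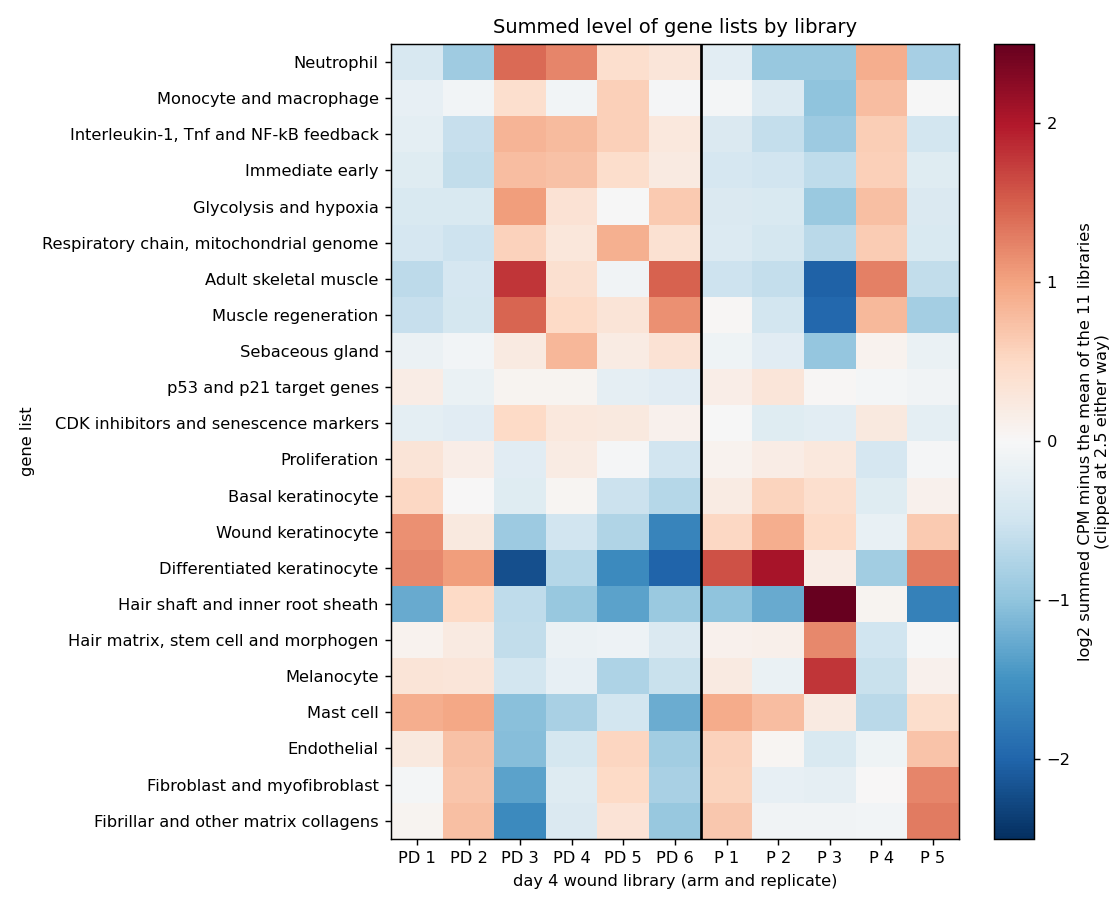
Rows are 22 gene lists and columns the 11 day 4 libraries, PD left of P. Colour is the log2 summed CPM of the list minus its mean over the 11 libraries. PD 3 to 6 and P 4 share high neutrophil and low differentiated keratinocyte levels, and P 3 alone is high in hair genes.

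Genes were ranked by p among those with an assigned symbol, not a Gm or Rik number, and a mean of at least 1 CPM. The higher genes with the smallest p were then Acot5, Il19, Orm3, Ngrn, Proca1 and Serpina3m, none of which passed the edgeR test. Acot5 (ENSMUSG00000042540, GRCm39 chromosome 12, 84116099 to 84122794, plus strand) encodes a peroxisomal acyl-CoA thioesterase, which splits fatty acyl-CoA into fatty acid and coenzyme A. It held 1.96, 4.5, 8.19, 8.17, 3.92 and 5.51 CPM in PD wounds and 1.39, 1.89, 0.748, 1.33 and 1.75 CPM in P wounds. All 6 PD values lay above all 5 P values, the closest being 1.96 against 1.89 CPM. The mean was 3.76-fold higher in PD wounds (log2 1.91, SE 0.47, edgeR, adjusted p = 0.169), and DESeq2 called it (adjusted p = 0.00512). The Acot genes of this cluster are near copies of each other, so how reads were shared among them is uncertain. At day 2 the difference of Acot5 was -0.04 and at day 12 -1.01 log2, and the change of the difference between days 4 and 12 was 2.92 log2 (edgeR, adjusted p = 0.683).

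Il19 (ENSMUSG00000016524, GRCm39 chromosome 1, 130860393 to 130867852, minus strand), a cytokine of the interleukin-10 family made by keratinocytes and myeloid cells, held 1.25 to 8.55 CPM in PD wounds with a median of 4.55 CPM. P wounds held 2, 1.94, 0.748, 1.9 and 1.01 CPM. PD replicates 2 and 5, at 1.25 and 1.96 CPM, overlapped the P wounds, and the other 4 PD wounds lay above all of them. The log2 difference was 1.56 (SE 0.42, edgeR, adjusted p = 0.217), and DESeq2 gave an adjusted p of 0.0222. Orm3, of the orosomucoid family of acute phase proteins, averaged 1.91 ± 1.39 CPM in PD wounds and 0.498 ± 0.201 CPM in P wounds (edgeR, adjusted p = 0.247; DESeq2, 0.0242). Serpina3m, a serine protease inhibitor gene of a large cluster of close copies, averaged 6.33 ± 4.89 CPM in PD wounds and 2.33 ± 1.07 CPM in P wounds (edgeR, adjusted p = 0.271; DESeq2, 0.0488). Its highest PD value, 16.1 CPM, was that of replicate 3 alone. Ngrn, which acts in the handling of mitochondrial ribosomal RNA, varied least: 21.9 to 29.6 CPM in PD wounds against 18.3 to 23.6 CPM in P wounds (log2 0.38, SE 0.11, edgeR, adjusted p = 0.266). Weighted limma-voom called Ngrn (adjusted p = 0.00747). Without P replicate 3 all PD values of Ngrn lay above all P values, with a log2 difference of 0.45. Proca1 averaged 4.78 ± 1.43 CPM in PD wounds and 2.66 ± 0.583 CPM in P wounds (edgeR, adjusted p = 0.266).

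**Figure D4:**
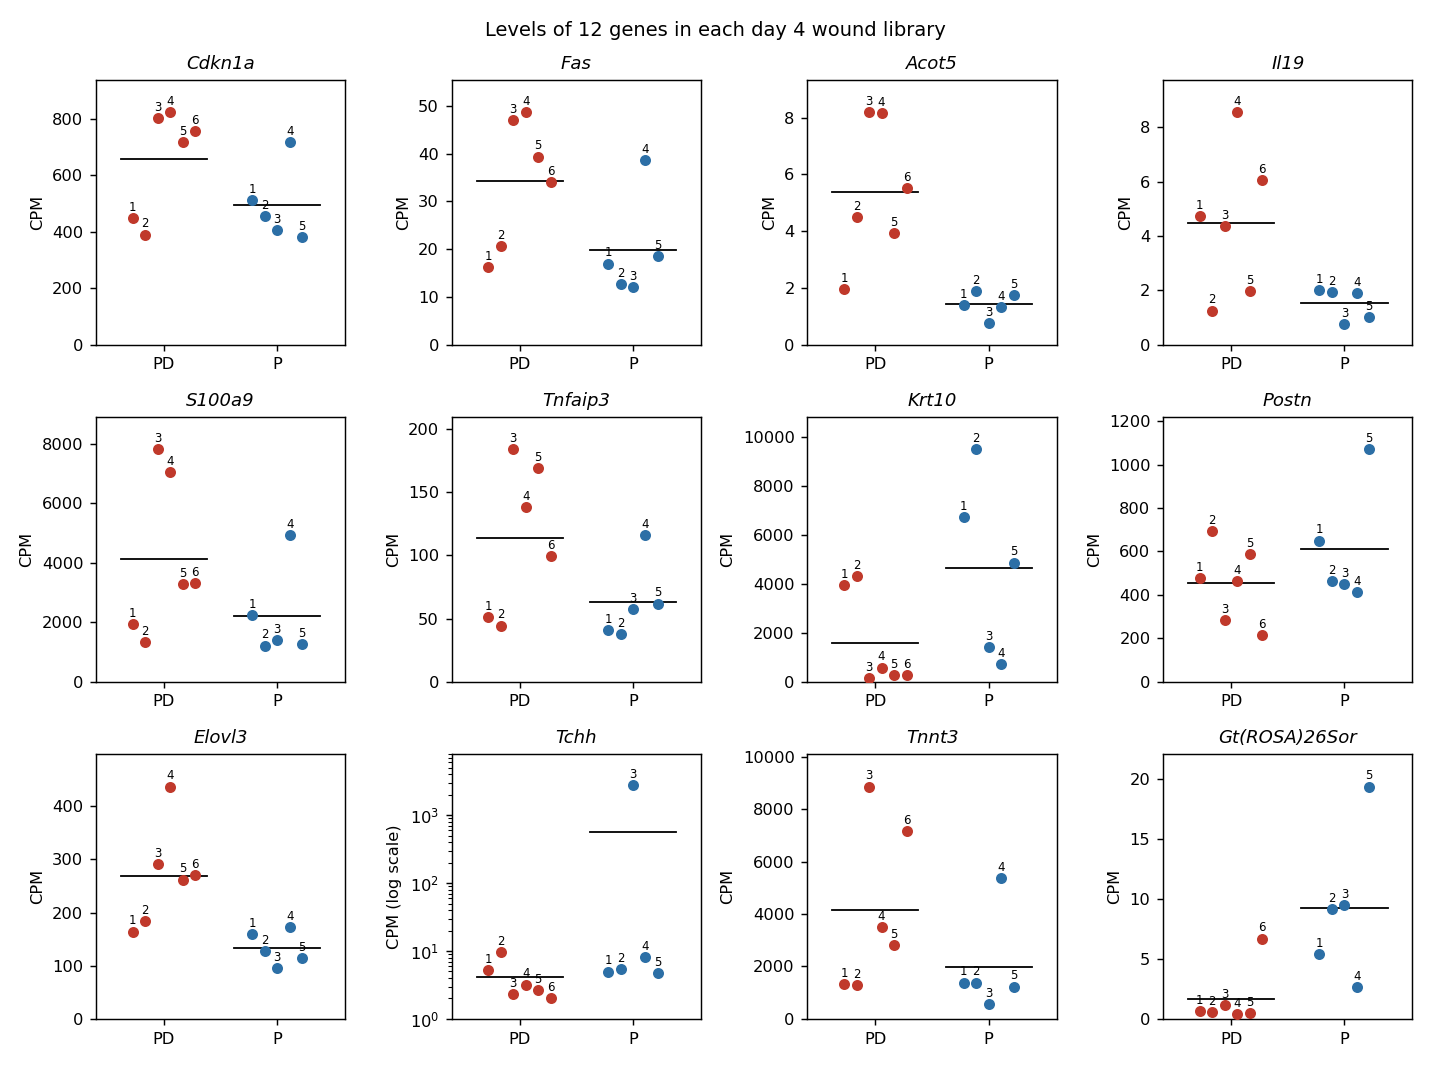
Points are CPM of 12 genes in each day 4 library, numbered by replicate, with PD in red left of P in blue and a line at each arm's mean. The Tchh axis is logarithmic. For Acot5 the arms do not overlap, for Tchh 1 P library holds 2800 CPM, and for Cdkn1a, Fas, S100a9 and Tnfaip3 P replicate 4 lies near or among PD replicates 3 to 6.

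In the same ranking the lower genes with the smallest p were all genes of the growing hair: Krt72, Prr9, Tchh, Padi3, Krt87 and Krt35. Hair keratins fill the shaft. Inner root sheath keratins such as Krt25, Krt71 and Krt72 build the sheath that moulds it, trichohyalin (Tchh) binds their filaments together, and Padi3 turns arginines of trichohyalin into citrulline. Tchh (ENSMUSG00000052415, GRCm39 chromosome 3, 93349637 to 93356384, plus strand) held 2.02 to 9.56 CPM in PD wounds, with a median of 2.93 CPM. P wounds held 4.97, 5.44, 2800, 8.13 and 4.69 CPM. The P level was therefore that of replicate 3 alone, and the other P libraries lay within the PD range. The log2 difference of -7.07 (SE 1.40, edgeR, adjusted p = 0.0808) was -0.46 without P replicate 3. Krt72 was at 0 in 5 of 6 PD wounds and at 0.208 CPM in the other, and at 0, 0, 380, 0.519 and 0 CPM in P wounds. Prr9 held 0.275 to 1.52 CPM in PD wounds and 1.68, 1.55, 449, 3.92 and 1.75 CPM in P wounds. Its arms did not overlap, with or without P replicate 3, the closest values being 1.52 and 1.55 CPM. The log2 difference of Prr9 was -6.71 (edgeR, adjusted p = 0.0808), and -1.31 without P replicate 3 (edgeR, adjusted p = 0.816).

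The region upstream of the transcription start is shown for Krt25, Prr9 and Tchh, because these hair genes were high together in the same library. Sequences are the 150 bases before the start in RefSeq (GRCm38.p6), 5′ to 3′ on the strand of the gene. Capitals mark TATAAA, the TATA element, and CTTTGAA, a core bound by the Wnt effectors Lef1 and Tcf, each searched on both strands.
Krt25, chr11:99322952-99323101, minus strand: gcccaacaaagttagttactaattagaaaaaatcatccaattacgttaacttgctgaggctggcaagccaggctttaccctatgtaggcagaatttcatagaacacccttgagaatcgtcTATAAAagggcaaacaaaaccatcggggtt
Prr9, chr3:92123948-92124097, minus strand: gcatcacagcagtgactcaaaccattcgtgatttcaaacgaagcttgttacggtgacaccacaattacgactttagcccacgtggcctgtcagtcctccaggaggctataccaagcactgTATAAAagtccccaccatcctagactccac
Tchh, chr3:93442180-93442329, plus strand: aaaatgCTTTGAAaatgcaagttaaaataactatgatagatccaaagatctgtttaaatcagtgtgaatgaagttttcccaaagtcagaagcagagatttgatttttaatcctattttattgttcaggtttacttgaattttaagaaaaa
In the 250 bases before the start, TATAAA was found in 15 of the 20 RefSeq promoters that matched 17 genes of the hair shaft and inner root sheath list (75%), and in 12.4% of all 32851 promoters. CTTTGAA was found in 5 of the 20 (25%) and in 4.46% of all. A match is a description of the letters and not a site of binding.

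All 23 tested hair shaft and inner root sheath genes were highest in P replicate 3, and for all 23 the PD range overlapped that of the other 4 P wounds. Each had an unadjusted p under 0.05, against 6.51% of all genes in that direction, and 0 of 23 passed in edgeR after adjustment. DESeq2 called all 23 lower, against 0.721% of all genes it tested, and weighted limma-voom called 0, against 5.29%. The edgeR fits without P replicate 1, 2, 4 or 5 called 11, 12, 11 and 12 of them. Over all genes these fits called 27, 27, 29 and 26 lower, of 20639, 20639, 20668 and 20626 tested. The median log2 difference of the 23 genes was -7.42, also with the 4 genes at 0 in every PD wound set at 3 counts over the group, beside -0.01 for all genes. Without P replicate 3 it was -0.06, beside 0.01 for all genes. In the list of hair matrix, stem cell and morphogen genes, 9 of 20 were lower at an unadjusted p under 0.05 and the median was -0.49, or 0.08 without P replicate 3. Dlx3, a transcription factor of differentiating hair and epidermis, stood at 189 CPM in P replicate 3, against 2.76 to 20.7 CPM in PD wounds and 7.61 to 28.2 CPM in the other P wounds. Its log2 difference was -2.41, or -1.05 without that library. Hoxc13, which drives hair keratin genes, stood at 116 CPM there, at 4.16 to 7.93 CPM in PD wounds and at 3.8 to 7.17 CPM in the other P wounds. Its log2 difference was -2.14 with that library and 0.15 without it. Melanocyte genes, which follow the hair bulb, had a median difference of -1.26 with the library and 0.04 without it. Tyr, the tyrosinase that starts melanin synthesis, held 6.84 CPM in it, 0 to 0.939 CPM in PD wounds and 0.288 to 0.613 CPM in the other P wounds, and its difference of -2.02 was -0.28 without that library.

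P replicate 3 weighed on the rest of the lower genes and on the higher genes as well. It was the highest of the 11 libraries for 936 of the 1344 lower genes (69.6%), against 19.5% of all genes, and 186 of them stood in it at 10 times or more the level of the next library. It was the lowest of the 11 libraries for 523 of the 1025 higher genes (51%), against 18.7% of all genes. Without it 474 genes were higher (2.29%) and 508 lower (2.46%) at an unadjusted p under 0.05, of 20682 tested, and 0 passed after adjustment (edgeR, smallest adjusted p = 0.816). Of the 1025 higher genes 394 (38.4%) remained under 0.05, and of the 1344 lower genes 404 (30.1%).

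**Figure D5:**
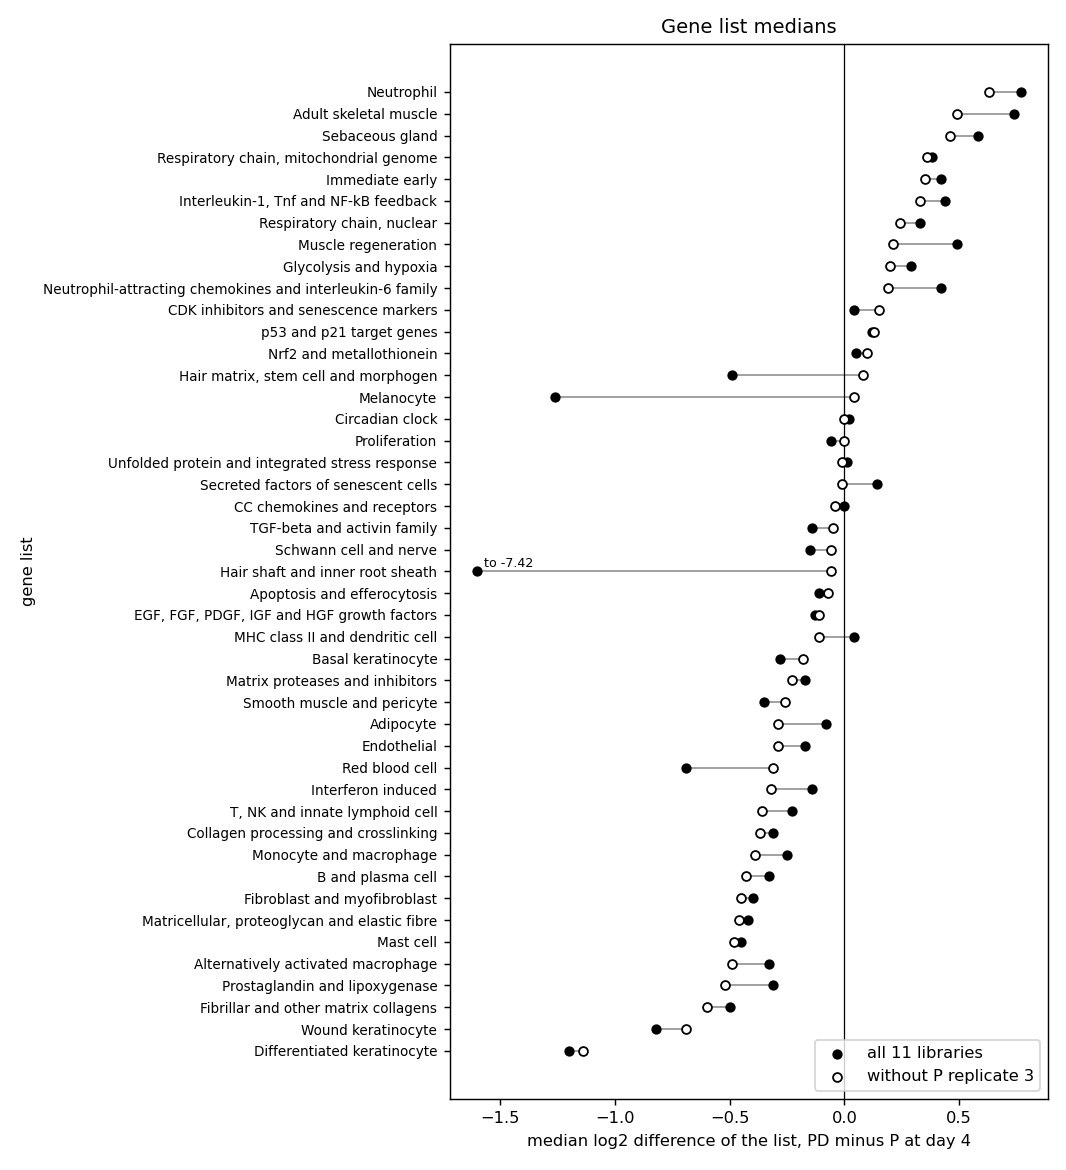
Each row is 1 of 45 gene lists, with the median log2 difference PD minus P of its tested members over all 11 libraries (filled) and without P replicate 3 (open). The hair shaft median, drawn at the edge, is -7.42 with the library and -0.06 without it, while the neutrophil (0.77 and 0.63) and differentiated keratinocyte (-1.20 and -1.14) medians move little.

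Genes of the differentiated epidermis had lower mean levels in PD wounds in all 21 tested members, with a median log2 difference of -1.20, beside 50.7% of all genes below 0. None passed the edgeR test and 1 had an unadjusted p under 0.05, against 6.51% of all genes. Weighted limma-voom called 15 of the 21 lower, against 5.29% of all genes. Krt10 (ENSMUSG00000019761, GRCm39 chromosome 11, 99276072 to 99280195, minus strand) encodes a suprabasal keratin and held 3940 and 4310 CPM in PD replicates 1 and 2 and 165, 580, 288 and 272 CPM in PD replicates 3 to 6. P wounds held 6730, 9500, 1420, 708 and 4870 CPM. The lowest P values, those of replicates 3 and 4, lay between the PD sets (log2 -1.54, SE 0.82, edgeR, adjusted p = 0.454). Dsp, the desmosomal plaque protein that anchors keratin filaments, held 193 to 2080 CPM in PD wounds with a median of 384 CPM, and 379 to 2420 CPM in P wounds with a median of 1580 CPM (edgeR, adjusted p = 0.403). Klf4 and Alox12 are not members of this list. Klf4, a transcription factor of the skin barrier counted with the immediate early genes, averaged 163 ± 127 CPM in PD wounds and 314 ± 137 CPM in P wounds (edgeR, adjusted p = 0.393). Alox12, a lipoxygenase, averaged 6.8 ± 5.54 CPM in PD wounds and 14.5 ± 6.33 CPM in P wounds (edgeR, adjusted p = 0.392). Prostaglandin and lipoxygenase genes had a median of -0.31, or -0.52 without P replicate 3. At an unadjusted p under 0.05, 3 of 17 were lower and 0 higher, against 6.51% and 4.96% of all genes. Weighted limma-voom called 5 lower and 0 higher, against 5.29% and 4.75% of all genes.

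Wound keratinocyte genes had a median log2 difference of -0.82. At an unadjusted p under 0.05, 4 of 23 were lower and 1 higher, against 6.51% and 4.96% of all genes. Weighted limma-voom called 9 lower and 2 higher, against 5.29% and 4.75% of all genes. S100a7a, an antimicrobial protein of activated keratinocytes, held 0.551 to 2.7 CPM in PD wounds, against 2.58, 2.07, 29.4, 19.2 and 2.39 CPM in P wounds. P replicates 3 and 4 were far above all other libraries, and the remaining P values lay within the PD range (log2 -2.55, SE 0.66, edgeR, adjusted p = 0.189). DESeq2 called S100a7a (adjusted p = 0.00528). Without P replicate 3 the difference of S100a7a was -1.77. Krt17, a keratin of wound edge and hair, held 461 to 2740 CPM in PD wounds with a median of 764 CPM. In P wounds it held 982 to 5820 CPM, the highest in replicate 3, with a median of 1880 CPM (edgeR, adjusted p = 0.393). The log2 difference of Krt17 was -1.11 with that library and -0.50 without it. The basal keratinocyte median was -0.28. Against 6.51% of all genes, 2 of 13 members were lower at an unadjusted p under 0.05. One of these was Cxcl14, a chemokine of resting epithelium, at 41.8 to 76.5 CPM in PD wounds and 46.5 to 417 CPM in P wounds. Its difference was -1.27 with P replicate 3 and -0.28 without it.

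Neutrophil genes had higher mean levels in PD wounds in 21 of 22 members, with a median log2 difference of 0.77, beside 49.3% of all genes with a difference above 0. Of these members 2 had an unadjusted p under 0.05, against 4.96% of all genes in that direction, and none passed the edgeR test. Weighted limma-voom called 10 of the 22 higher and 0 lower, against 4.75% and 5.29% of all genes. S100a9 (ENSMUSG00000056071, GRCm39 chromosome 3, 90599931 to 90603071, minus strand) held 1930, 1330, 7820, 7050, 3290 and 3320 CPM in PD wounds and 2240, 1220, 1410, 4940 and 1260 CPM in P wounds. PD replicates 3 to 6 and P replicate 4 were the 5 highest. The log2 difference was 0.90 (edgeR, adjusted p = 0.697). Il1r2, the decoy receptor that takes up interleukin-1 and is abundant on neutrophils, averaged 387 ± 163 CPM in PD wounds and 222 ± 124 CPM in P wounds (edgeR, adjusted p = 0.408). G0s2, an inhibitor of fat breakdown that is high in neutrophils, averaged 324 ± 192 CPM in PD wounds and 179 ± 109 CPM in P wounds (edgeR, adjusted p = 0.405).

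Feedback genes of interleukin-1, Tnf and NF-kB had a median of 0.44, with 5 of 26 higher and 0 lower at an unadjusted p under 0.05, against 4.96% and 6.51% of all genes. Weighted limma-voom called 11 higher and 3 lower, against 4.75% and 5.29% of all genes, among them Tnfaip3 and Tnf as higher (adjusted p = 0.00763 and 0.00787). Tnfaip3 (A20), which removes ubiquitin chains from the NF-kB pathway and damps it, held 51.4 and 44.4 CPM in PD replicates 1 and 2 and 184, 138, 169 and 99.8 CPM in PD replicates 3 to 6. P wounds held 40.9, 37.8, 57.6, 116 and 61.9 CPM. The P wounds other than replicate 4 lay below PD replicates 3 to 6 (log2 0.86, SE 0.32, edgeR, adjusted p = 0.371). Nfkbia, the inhibitor that holds NF-kB in the cytoplasm, averaged 484 ± 215 CPM in PD wounds and 284 ± 170 CPM in P wounds (edgeR, adjusted p = 0.38). Traf1, an adaptor of Tnf receptors, averaged 58.9 ± 32.2 CPM in PD wounds and 34.5 ± 20.9 CPM in P wounds (edgeR, adjusted p = 0.40). Tnf itself held 73 to 399 CPM in PD wounds with a median of 246 CPM, and 55.5 to 277 CPM in P wounds with a median of 79 CPM (edgeR, adjusted p = 0.499). Lcn2, an iron-binding antibacterial protein, averaged 224 ± 190 CPM in PD wounds and 115 ± 67.3 CPM in P wounds (edgeR, adjusted p = 0.405).

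Immediate early genes, which respond within minutes to stimulation, had a median of 0.42. At an unadjusted p under 0.05, 4 of 18 were higher and 1, Klf4, was lower, against 4.96% and 6.51% of all genes. Weighted limma-voom called 8 higher and 1 lower, against 4.75% and 5.29% of all genes. Zfp36, which destabilises cytokine messenger RNAs, averaged 570 ± 243 CPM in PD wounds and 351 ± 227 CPM in P wounds, and Ier3 averaged 898 ± 473 CPM in PD wounds and 498 ± 310 CPM in P wounds (edgeR, adjusted p = 0.40 and 0.405). Atf3, a stress-induced transcription factor, averaged 118 ± 49.5 CPM in PD wounds and 66.7 ± 38.5 CPM in P wounds (edgeR, adjusted p = 0.405). Monocyte and macrophage genes did not share this direction: 6 of 18 had a higher and 12 a lower mean in PD wounds, and the median was -0.25. The member with the smallest p, Mertk, averaged 15.9 ± 6.3 CPM in PD wounds and 21.3 ± 3.21 CPM in P wounds (edgeR, adjusted p = 0.436). Cd14, the co-receptor for bacterial lipopolysaccharide, was among the 6 higher members. It averaged 2150 ± 1160 CPM in PD wounds and 1300 ± 1040 CPM in P wounds (edgeR, adjusted p = 0.64). Weighted limma-voom called 0 of the 18 higher and 3 lower, against 4.75% and 5.29% of all genes. Interferon induced genes had a median of -0.14, T, NK and innate lymphoid cell genes -0.23 and MHC class II and dendritic cell genes 0.04. In these 3 lists 0 genes passed, and at an unadjusted p under 0.05 there were 0, 1 and 1 lower and 0 higher.

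Among p53 and p21 target genes, 3 of 23 were higher and 3 lower at an unadjusted p under 0.05, against 4.96% and 6.51% of all genes. The list median was 0.12, and none passed the edgeR test. Weighted limma-voom called 5 higher and 2 lower, against 4.75% and 5.29% of all genes. In edgeR the higher ones were Cdkn1a, Fas and Btg2. Fas (ENSMUSG00000024778, GRCm39 chromosome 19, 34268001 to 34305173, plus strand), the death receptor, held 16.2 and 20.7 CPM in PD replicates 1 and 2 and 47, 48.7, 39.4 and 34 CPM in PD replicates 3 to 6. P wounds held 17, 12.7, 12, 38.7 and 18.6 CPM (log2 0.80, SE 0.30, edgeR, adjusted p = 0.38). Only P replicate 4 reached the level of PD replicates 3 to 6. Weighted limma-voom called Fas (log2 1.11, adjusted p = 0.00747) and DESeq2 did not. Btg2, an antiproliferative gene, averaged 189 ± 83 CPM in PD wounds and 126 ± 49.4 CPM in P wounds (edgeR, adjusted p = 0.405). Zmat3, an RNA-binding p53 target, averaged 23.5 ± 6.25 CPM in PD wounds and 31.3 ± 5.94 CPM in P wounds (edgeR, adjusted p = 0.392). Trp53inp1, which promotes p53 activity and autophagy, averaged 13.9 ± 2.9 CPM in PD wounds and 23.9 ± 13.7 CPM in P wounds, with the highest value, 46.8 CPM, in P replicate 3 (edgeR, adjusted p = 0.38). Its difference of -0.78 was -0.38 without that library.

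Other cell cycle inhibitors and senescence genes were as mixed. Cdkn2d, the CDK4 and CDK6 inhibitor p19-INK4d, held 28.8 to 43.4 CPM in PD wounds and 26.4, 26.1, 20.7, 37.5 and 25.5 CPM in P wounds (log2 0.37, SE 0.12, edgeR, adjusted p = 0.321). All P wounds except replicate 4 lay below all PD wounds, and without P replicate 4 Cdkn2d was called (log2 0.49, edgeR, adjusted p = 0.0439). Leaving out that library also raised the higher genes at an unadjusted p under 0.05 from 1025 to 2263. Without P replicate 3 Cdkn2d was not called (log2 0.29, edgeR, adjusted p = 0.816). Cdkn2b, the inhibitor p15-INK4b, averaged 6.91 ± 1.81 CPM in PD wounds and 9.81 ± 3.06 CPM in P wounds (edgeR, adjusted p = 0.391). The list of CDK inhibitors and senescence markers had a median of 0.04 over 19 genes. At an unadjusted p under 0.05, 2 were higher and 1 lower, against 4.96% and 6.51% of all genes. Secreted factors of senescent cells had a median of 0.14 over 37 genes, with 1 higher and 0 lower. The higher one was Igfbp5, a binding protein of insulin-like growth factors, at 525 to 1500 CPM in PD wounds and 319 to 737 CPM in P wounds (edgeR, adjusted p = 0.414). Its lowest P value, 319 CPM, was that of replicate 3, and its log2 difference of 0.61 was 0.46 without that library. Without P replicate 3 the median of the secreted factors was -0.01, with 0 higher and 0 lower. Proliferation genes had a median of -0.06 over 24 genes, with none past an unadjusted p of 0.05 either way, and Birc5 (survivin), a gene of dividing cells, averaged 60 ± 10.3 CPM in PD wounds and 49.6 ± 4.88 CPM in P wounds (edgeR, adjusted p = 0.459).

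Matrix and stromal genes had mostly lower means in PD wounds without passing the test. All 21 collagen genes had a negative difference, with a median of -0.50, beside 50.7% of all genes below 0. Against 6.51% of all genes, 1 of the 21 had an unadjusted p under 0.05. That gene, Col16a1, a minor collagen of fibril surfaces, held 75.6 to 165 CPM in PD wounds and 158, 119, 317, 95.5 and 189 CPM in P wounds. Its log2 difference of -0.68 (edgeR, adjusted p = 0.391) was -0.35 without P replicate 3, the highest library. Postn, a matricellular protein of granulation tissue, averaged 454 ± 181 CPM in PD wounds and 610 ± 275 CPM in P wounds (edgeR, adjusted p = 0.605). Fibroblast and myofibroblast genes had a median of -0.40 and collagen processing genes -0.31, with none past an unadjusted p of 0.05. The summed collagen genes overlapped across the arms: PD replicates 3 to 6 held 4020, 9380, 15400 and 6300 CPM and P replicate 4 held 11500 CPM. PD replicates 1 and 2 held 12600 and 20400 CPM, and the other P wounds 11400 to 29600 CPM. Timp3, an inhibitor of matrix metalloproteinases, held 79 to 128 CPM in PD wounds and 68.1 to 534 CPM in P wounds, with a difference of -1.04 that was -0.22 without P replicate 3. Endothelial genes had a median of -0.17, with the clotting factor carrier Vwf at 31.7 ± 22.1 CPM in PD wounds and 46.9 ± 18 CPM in P wounds (edgeR, adjusted p = 0.598).

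Mast cell genes had negative differences in 10 of 10 members, with a median of -0.45 and no unadjusted p under 0.05. Their sum was 33.9 to 58.6 CPM in PD replicates 3 to 6 and 151 and 157 CPM in PD replicates 1 and 2, against 152, 136, 93.3, 50 and 109 CPM in P wounds. Cma1, the mast cell chymase, held 18, 21.3, 3.2, 3.19, 3.3 and 1.56 CPM in PD wounds and 21.9, 16.3, 10.6, 3.98 and 11.5 CPM in P wounds (edgeR, adjusted p = 0.721). Mrgprb2, the mast cell receptor for basic secretagogues, averaged 1.03 ± 0.74 CPM in PD wounds and 1.88 ± 0.846 CPM in P wounds (edgeR, adjusted p = 0.465).

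Sebaceous gland genes had higher means in PD wounds in 12 of 13 members, with a median of 0.58, or 0.46 without P replicate 3. At an unadjusted p under 0.05, 4 of 13 were higher, against 4.96% of all genes, and none passed the edgeR test. Without P replicate 3 there was 1. Weighted limma-voom called 5 of the 13 higher and 0 lower, against 4.75% and 5.29% of all genes. Elovl3 (ENSMUSG00000038754, GRCm39 chromosome 19, 46119917 to 46124133, plus strand), which elongates saturated fatty acids for sebum, held 164, 184, 291, 437, 262 and 270 CPM in PD wounds and 160, 128, 95.5, 173 and 115 CPM in P wounds. PD replicate 1 lay below P replicate 4 and all other PD values lay above all P values (edgeR, adjusted p = 0.38). Awat1, which makes wax esters, averaged 51.4 ± 20.8 CPM in PD wounds and 27 ± 5.01 CPM in P wounds (edgeR, adjusted p = 0.405). Mgst1, a microsomal glutathione transferase, averaged 213 ± 46.6 CPM in PD wounds and 162 ± 32 CPM in P wounds, and Soat1, which esterifies cholesterol, averaged 304 ± 74.4 CPM in PD wounds and 204 ± 67.8 CPM in P wounds (edgeR, adjusted p = 0.405 and 0.424). Far2, which reduces fatty acyl-CoA to the alcohols of waxes, was the member whose levels did not overlap, at 249 to 492 CPM in PD wounds and 132 to 246 CPM in P wounds (log2 0.58, SE 0.42, edgeR, adjusted p = 0.549). In contrast to the neutrophil genes, P replicate 4 lay below PD replicates 3 to 6 here: it held 3490 CPM over the sebaceous list, against 3800 to 5840 CPM in those PD wounds, 2980 and 3110 CPM in PD replicates 1 and 2 and 1690 to 3060 CPM in the other P wounds.

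Skeletal muscle genes, which come from the muscle layer under the skin, had higher means in PD wounds in 21 of 21 members, beside 49.3% of all genes with a difference above 0. The median was 0.74, or 0.49 without P replicate 3, and no member had an unadjusted p under 0.05. Their sum ran from 19400 to 106000 CPM in PD wounds and from 7550 to 73400 CPM in P wounds, the highest P value being replicate 4. Tnnt3, troponin T of fast muscle, held 1290 to 8860 CPM in PD wounds with a median of 3140 CPM, and 555 to 5370 CPM in P wounds with a median of 1380 CPM (edgeR, adjusted p = 0.487). Muscle regeneration genes had a median of 0.49, or 0.21 without P replicate 3. Of these, Myf6, a myogenic transcription factor, averaged 86.9 ± 67.3 CPM in PD wounds and 36.5 ± 24.3 CPM in P wounds (log2 1.25, SE 0.54, edgeR, adjusted p = 0.402). The difference of Myf6 was 1.06 without P replicate 3. How much of each biopsy was muscle is not given, and its part in the other differences was not tested.

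Energy and stress genes had mixed differences. Nuclear genes of the respiratory chain had a median of 0.33 and 2 of 21 higher at an unadjusted p under 0.05, against 4.96% of all genes. One of the 2 was Cox4i1, a subunit of cytochrome c oxidase, at 471 ± 109 CPM in PD wounds and 370 ± 59.8 CPM in P wounds (edgeR, adjusted p = 0.417). The mitochondrial gene mt-Cytb held 5000 to 14700 CPM in PD wounds with a median of 10600 CPM, and 4460 to 13000 CPM in P wounds with a median of 5550 CPM (edgeR, adjusted p = 0.473). Glycolysis and hypoxia genes had a median of 0.29. Against 4.96% of all genes, 2 of 21 were higher at an unadjusted p under 0.05. These were Ankrd37, a hypoxia-induced gene, at 33.7 ± 21.2 CPM in PD wounds and 19 ± 9.59 CPM in P wounds, and Pfkfb3, which raises glycolytic flux, at 140 ± 46.9 CPM in PD wounds and 91.5 ± 28.6 CPM in P wounds (edgeR, adjusted p = 0.384 and 0.401). The metallothionein genes Mt1 and Mt2, which bind zinc and copper, averaged 408 ± 278 and 589 ± 355 CPM in PD wounds and 205 ± 41.8 and 305 ± 66.9 CPM in P wounds (edgeR, adjusted p = 0.38 and 0.391). PD replicate 3 held the highest values, 955 and 1270 CPM. Ddit3 (CHOP), of the integrated stress response, averaged 40.7 ± 17.5 CPM in PD wounds and 26.3 ± 11.8 CPM in P wounds (edgeR, adjusted p = 0.391). Heat shock genes went different ways: Hsph1 averaged 68.4 ± 6.96 CPM in PD wounds and 54.5 ± 4.41 CPM in P wounds, and Hspa1b 69.2 ± 39.5 CPM in PD wounds and 112 ± 33.9 CPM in P wounds (edgeR, adjusted p = 0.40 and 0.384). Mcl1, which protects cells from apoptosis and neutrophils in particular, averaged 772 ± 245 CPM in PD wounds and 533 ± 169 CPM in P wounds (log2 0.53, SE 0.18, edgeR, adjusted p = 0.351). In the TGF-beta and activin family the BMP antagonist Nog averaged 13 ± 6.18 CPM in PD wounds and 6.43 ± 3.13 CPM in P wounds, and the ligand Bmp4 3.87 ± 1.63 CPM in PD wounds and 7.19 ± 4.73 CPM in P wounds (edgeR, adjusted p = 0.392 and 0.38). The difference of Bmp4, -0.89 log2, was -0.39 without P replicate 3.

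The remaining lists also held no gene past the test. Neutrophil-attracting chemokines and the interleukin-6 family had a median of 0.42 over 21 genes, or 0.19 without P replicate 3. Red blood cell genes had a negative difference in 7 of 7 members, with a median of -0.69, or -0.31 without P replicate 3. Medians were -0.33 for alternatively activated macrophage genes, -0.33 for B and plasma cell genes, -0.35 for smooth muscle and pericyte genes and -0.42 for matricellular, proteoglycan and elastic fibre genes. Adipocyte (-0.08), Schwann cell and nerve (-0.15), growth factor (-0.13) and circadian clock (0.02) genes had medians closer to the -0.01 of all genes.

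One transcript outside the lists, Gt(ROSA)26Sor, was chosen after its values were seen. It is the noncoding RNA of the ROSA26 locus (ENSMUSG00000086429, GRCm39 chromosome 6, 113043843 to 113055336, minus strand), a widely expressed locus that is often used as a site for inserted transgenes. It held 0.653, 0.589, 1.12, 0.412, 0.459 and 6.7 CPM in PD wounds and 5.42, 9.17, 9.5, 2.65 and 19.4 CPM in P wounds. PD replicates 1 to 5 lay below all P wounds, and PD replicate 6, the shallowest library with 73 counts of this transcript, lay within the P range. The log2 difference was -2.60 (SE 0.82) and did not pass (edgeR, adjusted p = 0.321), and it was the same without P replicate 3. Weighted limma-voom called it (log2 -3.43, adjusted p = 0.0245) and DESeq2 did not (adjusted p = 0.0902). Its neighbours Thumpd3 and Setd5, which overlap it on the opposite strand by 2796 and 2347 bases, differed by -0.17 and -0.25 log2 (edgeR, adjusted p = 0.643 and 0.557). At day 2 the PD wounds held 0.666, 0.651, 19.6, 9.8 and 9.37 CPM and the P wounds 2.4 to 11 CPM. At day 12 the PD wounds held 0.232 to 3.66 CPM and the P wounds 0.646 to 7.78 CPM, and unwounded skin held 9.72 to 10.2 CPM. The level thus varied within PD wounds at day 2 as well as between the arms at day 4. Since the labels name no allele, these values were not used to judge what any library carried.

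Whether the day 4 difference was particular to that day was tested as a change of the PD minus P difference. Of 20657 genes 0 changed between days 2 and 4 and 0 between days 12 and 4 (edgeR), with 1472 (7.13%; 3.87% higher and 3.25% lower) and 623 (3.02%; 1.24% higher and 1.77% lower) at an unadjusted p under 0.05. DESeq2 called 78 and 87 genes and weighted limma-voom 2826 and 1. At an unadjusted p under 0.05 the arms differed in 2369 genes (11.5%) at day 4, in 793 (3.84%; 1.44% higher and 2.4% lower) at day 2 and in 1022 (4.95%; 3.42% higher and 1.52% lower) at day 12. Across genes, which are not independent replicates, the day 4 differences had a Pearson r of -0.01 and a Spearman rho of -0.06 with those of day 2, and 0.29 and 0.46 with those of day 12. Median differences on days 4, 2 and 12 were 0.77, -0.66 and -0.14 for neutrophil genes, and -1.20, -0.14 and -0.41 for differentiated keratinocyte genes. For muscle these medians were 0.74, -0.07 and 1.19.

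The day 4 difference was also set beside the course of healing in P wounds, which shares no library with it. Of 4219 genes that rose in P wounds at day 12 relative to day 2 (edgeR), 71.4% had a negative PD minus P difference at day 4, and of 4241 that fell 29.5% did, against 50.7% of all genes. The median differences were -0.17 for the first set and 0.17 for the second, or -0.05 and 0.12 without P replicate 3. Across all tested genes Pearson's r between the day 4 difference and the day 12 minus day 2 change of P wounds was -0.69 and Spearman's rho -0.37. Without P replicate 3 they were -0.20 and -0.23, so the size of the relation rested on that library while its sign did not.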

How the data were processed

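Counts per gene of 36 mouse skin libraries were used as deposited by the authors, whole-number counts that were not normalized. Libraries were TruSeq Stranded mRNA from TRIzol RNA, per the labels' protocols. The submitters' processing notes name Trimmomatic, HISAT2 2.1.0, SAMtools 1.9, HTSeq and the build GRCm39. The strand setting and annotation release are not given in the sources used here. Each file held 55414 genes. Replicate libraries differed by far more than sampling noise (chi-square per degree of freedom of at least 39.3).

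The test was edgeR's robust quasi-likelihood F-test (version 4.0.16, R 4.3.3) on TMM-scaled libraries, with 1 mean for each of 7 groups over all 36 libraries. filterByExpr (minimum count 10, minimum total 15) kept 20657 genes. Calls needed an adjusted p (Benjamini-Hochberg) under 0.05. Levels are TMM-scaled CPM, and principal components used log2 CPM with a prior count of 2. The code was tested on simulated data.

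The members and the 45 gene lists were chosen with earlier results of these data known, so no list is independent evidence of its direction. Lists are described by counts and medians, with no set test. The rule for named genes takes Cdkn1a, the called genes with the smallest adjusted p and, from every list, at most 4 members of smallest p. Where fewer than 6 genes are called in a direction, it takes the 6 of smallest p. Genes taken by p over all genes needed an assigned symbol, not a Gm or Rik number, and a mean of at least 1 CPM. The rule gives more genes than are reported here. Far2, S100a9, Krt25, Gt(ROSA)26Sor and its neighbours were chosen after their values were seen. Coordinates are from a GENCODE annotation of GRCm39 and promoters from RefSeq. Alternatives were other scalings and filters, robust fitting off, DESeq2 1.42.0, limma-voom (limma 3.58.1), the 11 day 4 libraries alone, each library left out, the replicate number as a block, 2 surrogate variables (sva 3.50.0) and omission of hair, melanocyte, muscle, fat and red blood cell genes. The 3-count floor covers counting error only. SDs are between libraries. The SE is the size of the log2 difference divided by the square root of the edgeR F, so it includes the spread between libraries.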

Additional observations from a re-analysis of the deposited data

Results flagged for a closer look

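Within an arm, 1 library lay far from the others for 34 of 146 combinations of gene and arm, judged by its gap to the nearest library as a share of the arm's whole range (Dixon's 95% critical value). For normally spread values of genes chosen without regard to them, chance gives about 5%. Most of these genes were chosen by their day 4 p or after their values were seen, and they are not independent of each other. The 34 can therefore not be read against that 5%. In the PD arm the share was Krt72 1, Bmp4 0.784 and Krt25 0.989 in replicate 2, which held 10.8 CPM of Krt25 and 7.14 CPM of Bmp4. It was Serpina3m 0.776, Mt1 0.743 and Mt2 0.705 in replicate 3, Far2 0.909 in replicate 4 and Igfbp5 0.641 and Gt(ROSA)26Sor 0.887 in replicate 6. In the P arm the shares in replicate 3, the library high in hair genes, were Krt72 0.999, Prr9 0.995, Tchh 0.999, Padi3 0.994, Krt87 0.998, Krt35 0.995, Cxcl14 0.821, Krt17 0.814, Dlx3 0.886, Hoxc13 0.97, Tyr 0.95, Bmp4 0.858, Timp3 0.816 and Krt25 0.999. In P replicate 4 they were Fas 0.753, Tnf 0.881, G0s2 0.732, Cd14 0.793, Tnnt3 0.829, mt-Cytb 0.862, Nfkbia 0.764, Zfp36 0.836, Ier3 0.813, Ddit3 0.85 and S100a9 0.726. For each of these genes the distant library was the highest of its arm. The cause was not tested.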

How the results depend on the processing

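The edgeR counts of 0 higher and 0 lower genes stayed at 0 with DESeq2 size factors, no composition factor, no filter, a stricter filter, robust fitting off, only the 11 day 4 libraries, the replicate block, 2 surrogate variables and omission of tissue genes. With each library left out in turn the count ran from 0 to 2 higher and from 0 to 29 lower. It was 27, 27, 29 and 26 lower without P replicates 1, 2, 4 and 5, of which 25, 26, 25 and 25 stood in P replicate 3 at 10 times or more the next library, and 0 without P replicate 3. Adgrl3, Lurap1l and Pigg were among the other lower genes without P replicate 4. Tnfsf15 was called lower without PD replicate 2, and Tmco6 and Cdkn2d higher without P replicate 4. DESeq2 called 9 higher and 165 lower genes and limma-voom with sample weights 981 and 1093. For the change of the difference from day 2 and from day 12, DESeq2 called 78 and 87 genes and weighted limma-voom 2826 and 1, while leaving out a library gave 0 to 0. Added after the data were seen, limma-voom without weights called 1 higher gene, and a term for replicates 1 and 2 against the rest, or omission of both P replicate 3 and PD replicate 6, called 0. Cdkn1a passed under weighted limma-voom only (0.50 log2, adjusted p = 0.0422), and its adjusted p ran to 0.999 over all alternatives; leave-one-out values ran from 0.32 to 0.55. The 72 other genes were chosen from these same data by their edgeR p or after their values were seen. Of their 1787 values under 25 alternatives, 76 passed the threshold that edgeR did not reach. These were 38 under weighted limma-voom, 13 under DESeq2 and 6, 6, 7 and 6 without P replicates 1, 2, 4 and 5. Another 4 reversed: Hoxc13 (0.15, with leave-one-out values of -2.42 to 0.15) and Krt25 (1.88, with -12.60 to 1.88) without P replicate 3, and 0.16 and 2.09 without P replicate 3 and PD replicate 6. Same-numbered wounds of the arms had correlated deviations of 0.30, 0.25, -0.18, 0.15 and 0.16, so the numbers were not taken as pairs; with the replicate block 0 genes passed and Cdkn1a differed by 0.33 log2. The cause of these changes was not tested. PD replicate 6, at 11.8 M counts, limits low genes most.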
